A study of Mus musculus with 2 samples.

Results

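The genes described here encode plasma proteins that the liver secretes: carriers such as albumin, the fetuins, coagulation proteins, protease inhibitors of the serpin family, the chains of the inter-alpha inhibitor, and a few others including the hormones FGF21 and hepcidin. A list of 41 such genes was taken by gene symbol from the GENCODE M21 annotation, out of 55536 annotated genes, and all 41 were found. For each gene the level in both libraries and the ratio between the libraries were compared with those of Alb, the albumin gene.

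Hepatocytes make most of the protein of blood plasma and release it into the circulation through the secretory pathway. Many of these genes are switched on in liver by the same set of transcription factors, among them HNF4A, the FOXA proteins and the C/EBP proteins, and several respond to inflammation as acute phase genes. The adrenal gland is not known as a main source of them, but corticosteroid-binding globulin, the product of Serpina6, carries its steroids in blood.

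The data were total RNA-seq of adrenal gland tissue from male mice at postnatal day 10. The animals were B6CASTF1/J, hybrids of the C57BL/6J and CAST/EiJ strains, so autosomal genes have an allele of each strain, while levels were counted against the C57BL/6J reference. There was 1 group with 2 libraries, biological replicates 2 and 1, each with 300 ng of input RNA and added ERCC spike-ins. The labels number the animals 4 for replicate 2 and 3 for replicate 1, but both library descriptions give animal number 3 and both samples carry 1 donor identifier, so the labels do not settle whether the libraries come from different animals.

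Expected counts summed to 38984236 in replicate 2 against 36982665 in replicate 1. Ratios are given as replicate 2 over replicate 1 after TMM scaling, under which the median ratio of 18175 genes (those averaging 10 or more expected counts) was 1.00. Each value in a library is a single measurement. Intervals of ratios are exact binomial (Clopper-Pearson) 95% intervals that cover counting error only. No p-value was computed, since the libraries are replicates of 1 group and there is no contrast between conditions. The 8 cortex markers, led by Hsd3b1, Star and Cyp21a1 of steroid synthesis, had ratios of 0.841 to 0.941, and the 8 chromaffin markers, led by Chga, Chgb and Pnmt of the medulla, had ratios of 0.779 to 0.924, so the markers of the labelled tissue lay just below 1 together. All 16 were present, and the lowest level of any of them was 6.00 TPM in replicate 2 against 7.01 TPM in replicate 1. The lowest and highest cortex ratios were those of Hsd3b1 and Nr5a1, and the lowest and highest chromaffin ratios those of Slc18a1 and Ddc.

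Of the 41 genes, 39 averaged 10 or more expected counts, and 38 of these were more than 2-fold higher in replicate 2, against 6.74% of all 18175 genes with that mean. A gene was said to follow Alb when the whole interval of its ratio, divided by the Alb ratio, lay within 1.5-fold of 1, and to depart when the whole interval lay outside. This measure does not depend on how the libraries are scaled. By it 36 genes followed, Alb itself included, against 1.85% of all genes. Afp and Fgf21 lay above (0.237% of all genes), Serpina6 lay below (84.6% of all genes), and none was left without a class. Hamp and A1bg had too few reads to class. Intervals are wider for genes with fewer counts, which makes it harder for such genes to count as followers. The genes behind these shares were not matched to the members for counts.

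Promoters of 4 members are shown before the values because they set out the reference gene, a gene whose ratio was nearly that of Alb, and the genes farthest above it. A promoter here is the RefSeq window of 250 bases before and 50 bases after the annotated start (GRCm38.p6), written 5′ to 3′ on the strand of the gene. Windows were matched for 34 members by symbol, and Serpina3k, Ttr, Kng1, Serpina6, Trf, Plg and Hp had no entry. The windows are chr5:90460620-90460919 on the plus strand for Alb, chr5:137981271-137981570 on the plus strand for Azgp1, chr5:90490464-90490763 on the plus strand for Afp and chr7:45615441-45615740 on the minus strand for Fgf21. Capitals mark a match to the C/EBP motif TTGCNNAA or the TATA box TATAAA on either strand.
Alb: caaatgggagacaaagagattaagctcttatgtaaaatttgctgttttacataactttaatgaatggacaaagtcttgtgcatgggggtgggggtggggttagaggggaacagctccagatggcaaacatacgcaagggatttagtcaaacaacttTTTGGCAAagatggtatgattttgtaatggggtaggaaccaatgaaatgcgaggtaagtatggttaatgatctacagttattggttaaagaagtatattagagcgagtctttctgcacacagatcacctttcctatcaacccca
Azgp1: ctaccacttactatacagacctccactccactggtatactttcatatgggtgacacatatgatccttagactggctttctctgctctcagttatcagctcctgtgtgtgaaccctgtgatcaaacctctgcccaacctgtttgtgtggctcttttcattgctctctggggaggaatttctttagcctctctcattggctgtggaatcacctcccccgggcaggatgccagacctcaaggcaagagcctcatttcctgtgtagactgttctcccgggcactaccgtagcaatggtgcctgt
Afp: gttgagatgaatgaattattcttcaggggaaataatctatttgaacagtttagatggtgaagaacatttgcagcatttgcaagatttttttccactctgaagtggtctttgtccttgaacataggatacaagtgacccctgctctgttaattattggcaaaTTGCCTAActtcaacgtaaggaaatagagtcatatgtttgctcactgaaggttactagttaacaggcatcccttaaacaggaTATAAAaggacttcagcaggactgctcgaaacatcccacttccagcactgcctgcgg
Fgf21: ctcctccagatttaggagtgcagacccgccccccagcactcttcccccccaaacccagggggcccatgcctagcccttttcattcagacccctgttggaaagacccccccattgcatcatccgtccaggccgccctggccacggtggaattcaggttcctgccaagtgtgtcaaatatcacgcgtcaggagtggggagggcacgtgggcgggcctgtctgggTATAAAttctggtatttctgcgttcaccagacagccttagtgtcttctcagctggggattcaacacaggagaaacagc

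Positions are counted from 0 at the RefSeq start of each window. The GENCODE gene starts of Alb (90460897) and Afp (90490737) lie downstream of their RefSeq starts, so these distances depend on the annotation used. In the Alb window the C/EBP match began at position -94. In the Afp window the C/EBP match began at -89 and the TATA box at -7. The Fgf21 window held a TATA box at -28 and no C/EBP match, and the Azgp1 window held neither. The ratio of Azgp1 was 0.998 of that of Alb.

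Across the members with a window, the C/EBP motif was found in 16 of 34 genes (47.1%), against 12.2% of 27025 genes with a window of the same length. Alb, Afp, Fga and Fgb were among those with a match. The 5 Serpina1 genes are near copies of each other, and without them the count was 12 of 29. The STAT motif TTCNNNGAA was in 7 members (20.6% against 9.55%), the TATA box in 8 (23.5% against 15.7%), the FOXA motif TGTTTAC in 2 (5.88% against 4.05%) and the HNF4 motif CAAAGTCCA in 0 (0% against 0.555%). Both strands were searched and matches to different motifs may overlap. These are matches of letters within a short window, not sites at which a factor was measured.

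**Figure D1:**
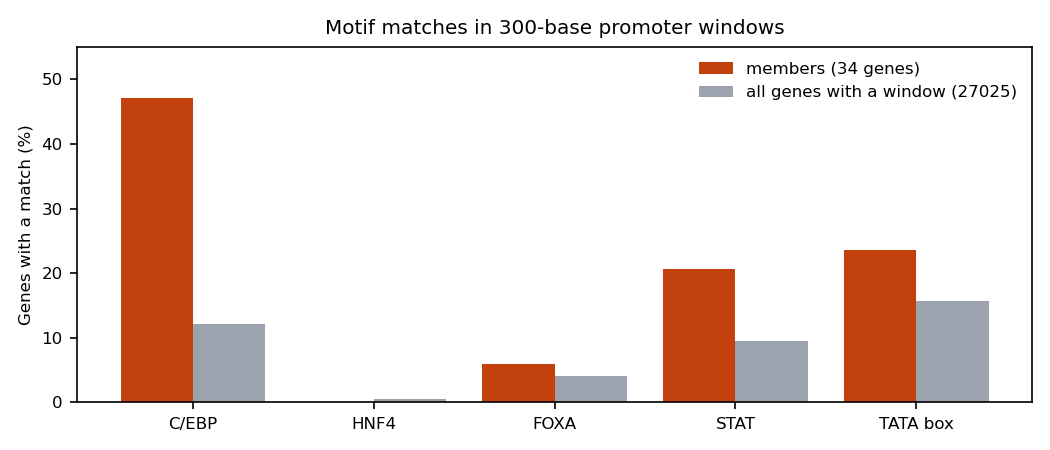
Share of genes (%) with at least 1 match to each of 5 motifs in the promoter window, for the 34 members with a window (orange) and for all 27025 genes with a window (grey). The C/EBP motif stands at 47.1% of members against 12.2% of all genes, FOXA at 5.88% against 4.05%, and HNF4 has no match among the members.

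The most abundant member was a carrier. Alb, the main protein of plasma, stood at 6173 TPM in replicate 2 against 2046 TPM in replicate 1, a mean of 4110 ± 2918 TPM (SD, n = 2), and its ratio was 3.06 (3.04 to 3.08). It was the most abundant nuclear protein-coding gene of replicate 2 and was at rank 2 in replicate 1. Trf, transferrin, which carries iron, stood at 2305 TPM in replicate 2 against 730 TPM in replicate 1, with a ratio of 3.24 (3.21 to 3.28). Ttr, transthyretin, which carries thyroxine and retinol-binding protein, had 811 TPM in replicate 2 against 289 TPM in replicate 1. Its ratio of 2.85 (2.79 to 2.91) was below that of Alb by more than counting error, at 0.930 of it.

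Gc, the vitamin D-binding protein, had 288 TPM in replicate 2 against 89.1 TPM in replicate 1, a ratio of 3.25. The haem and haemoglobin scavengers lay beside each other in both libraries: Hpx, hemopexin, had 262 TPM in replicate 2 against 87.9 TPM in replicate 1, and Hp, haptoglobin, had 262 TPM in replicate 2 against 86.3 TPM in replicate 1. Their ratios, 3.03 for Hpx and 3.08 for Hp, could not be told apart from that of Alb within counting error. Cp, ceruloplasmin, which carries copper, had 74.8 TPM in replicate 2 against 25.8 TPM in replicate 1, a ratio of 2.88, and Azgp1, zinc-alpha-2-glycoprotein, had 41.6 TPM in replicate 2 against 13.8 TPM in replicate 1, a ratio of 3.06. For all of these carriers replicate 2 was the higher library.

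Afp, alpha-fetoprotein, the fetal relative of albumin, did not keep to the ratio of its neighbour. It lies at chr5:90490737-90508907 on the plus strand, next to Alb at chr5:90460897-90476602. It had 281 TPM (16522 counts) in replicate 2 against 44.8 TPM (2545 counts) in replicate 1, a ratio of 6.50 (6.23 to 6.78), which was 2.12 times the Alb ratio (2.03 to 2.21). Afp was 4.55% of the Alb level in replicate 2 against 2.19% of it in replicate 1. The second transcript table, made by the authors directly from the reads, gave a ratio of 6.50 as well. Afm, afamin, a further gene of the albumin family that is not among the 41, had a ratio of 3.45 (3.19 to 3.73), so of these 3 family members only Afp departed from Alb.

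Serpina6, the corticosteroid-binding globulin, was the sole one of the 39 classed members that was lower in replicate 2. It lies at chr12:103646630-103657212 on the minus strand, within the same stretch of chromosome 12 as the Serpina1 genes. Its level was 7.21 TPM (403 counts) in replicate 2 against 8.72 TPM (481 counts) in replicate 1, a ratio of 0.839 (0.733 to 0.959), which was 0.274 of the Alb ratio (0.239 to 0.313). The cortex and chromaffin markers had ratios of 0.779 to 0.941, and their part in the Serpina6 value was not tested. The 6 other members of the chromosome 12 group, Serpina1a to Serpina1e and Serpina3k, had ratios of 2.68 to 3.40. In the second transcript table the Serpina6 ratio was 0.866.

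**Figure D2:**
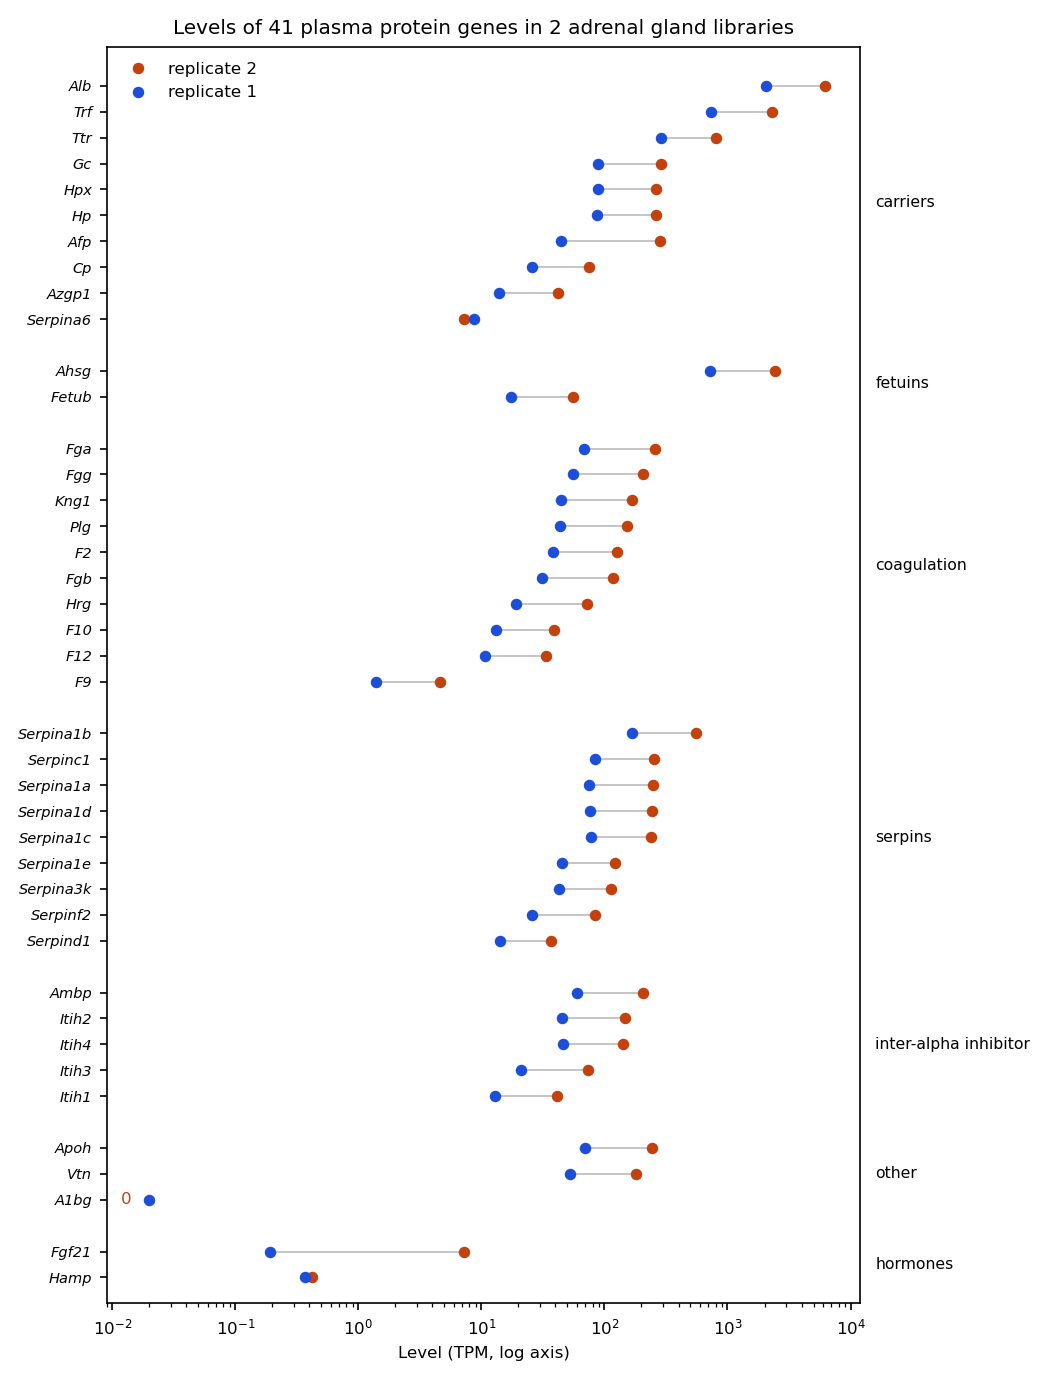
Level of each of the 41 genes (TPM, log axis) in replicate 2 (orange) and replicate 1 (blue), grouped by role and ordered by mean level within a role. A grey line joins the values of a gene, and a 0 stands for a value of 0. Replicate 2 is the higher library for nearly every gene by a similar distance, Serpina6 and Hamp have nearly equal values, and Fgf21 has the widest gap.

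Both fetuins followed Alb. Ahsg, fetuin-A, which binds calcium phosphate in plasma and keeps it from precipitating, had 2421 TPM in replicate 2 against 720 TPM in replicate 1, a ratio of 3.42 (3.38 to 3.46). Fetub, fetuin-B, which inhibits the protease ovastacin in mouse eggs, had 55.1 TPM in replicate 2 against 17.3 TPM in replicate 1, a ratio of 3.25 (3.00 to 3.52). Ahsg and Fetub are neighbours on chromosome 16 with Hrg and Kng1, and the 4 ratios of that locus were 3.25 to 3.87.

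All 10 coagulation members followed Alb, and their median ratio of 3.66 was the highest of the roles with more than 2 genes classed. The fibrinogen chains, which thrombin turns into the fibrin of a clot, are encoded side by side on chromosome 3 between 83007724 and 83049863. Fga had 258 TPM in replicate 2 against 68.5 TPM in replicate 1, Fgg had 207 TPM in replicate 2 against 55.7 TPM in replicate 1, and Fgb had 118 TPM in replicate 2 against 31.1 TPM in replicate 1. The 3 chains had almost the same ratio, 3.76 for Fgg, 3.81 for Fga and 3.86 for Fgb, and each was above that of Alb by more than counting error, at 1.23 to 1.26 of it.

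Hrg, histidine-rich glycoprotein, which binds heparin and plasminogen, had the highest ratio of all followers, 3.87 (3.63 to 4.14), with 72.1 TPM in replicate 2 against 18.9 TPM in replicate 1. Kng1, the kininogen that releases bradykinin, had 168 TPM in replicate 2 against 44.2 TPM in replicate 1, a ratio of 3.86. Plg, plasminogen, the precursor of the clot-dissolving protease plasmin, had 153 TPM in replicate 2 against 43.5 TPM in replicate 1, a ratio of 3.56. Hrg, Kng1 and the fibrinogen chains had the 5 highest ratios of the followers.

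The clotting factors themselves were nearer to Alb in ratio. F2, prothrombin, had 125 TPM in replicate 2 against 38.2 TPM in replicate 1, a ratio of 3.33. F10, factor X, had 39.1 TPM in replicate 2 against 13.3 TPM in replicate 1, a ratio of 2.98, and F12, factor XII, had 33.4 TPM in replicate 2 against 10.8 TPM in replicate 1, a ratio of 3.23. F9, factor IX, was the least abundant follower, at 4.59 TPM (449 counts) in replicate 2 against 1.39 TPM (134 counts) in replicate 1, a ratio of 3.35 (2.76 to 4.10). For F9, F10 and F12 the interval included the Alb ratio.

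The 9 serpin inhibitors all followed Alb, with a median ratio of 3.20. Serpinc1, antithrombin, had 253 TPM in replicate 2 against 83.7 TPM in replicate 1, a ratio of 3.20. Serpinf2, alpha-2-antiplasmin, which inhibits plasmin, had 84.0 TPM in replicate 2 against 25.9 TPM in replicate 1, a ratio of 3.28. Serpind1, heparin cofactor II, which inhibits thrombin, had 36.8 TPM in replicate 2 against 14.2 TPM in replicate 1. Its ratio of 2.62 (2.44 to 2.81) was the lowest of the followers, 0.855 of that of Alb. Serpina3k, a mouse relative of the human antichymotrypsin gene, had 113 TPM in replicate 2 against 42.7 TPM in replicate 1, a ratio of 2.68. Thrombin, F2, and 2 serpins that inhibit it, Serpinc1 and Serpind1, thus had ratios on both sides of that of Alb, all inside the 1.5-fold band.

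Alpha-1-antitrypsin, in humans the inhibitor of neutrophil elastase, is encoded there by a single gene and in mouse by a set of near copies. The coding sequences of Serpina1a to Serpina1e, all on chromosome 12, were 96.3% to 98.5% identical in pairs over 1239 shared bases (GENCODE M21 transcripts). Of 86 positions that varied among the 5, 20 lay in a stretch of 90 bases, 23.3% of the variable positions in 7.26% of the length. That stretch includes the code for the reactive centre, the part of a serpin that its target protease attacks, and it is shown because it is where the copies differ most. It covers bases 1172 to 1261 of the coding sequence of Serpina1a and bases 1103 to 1192 of the others, with variable positions in capitals.
Serpina1a: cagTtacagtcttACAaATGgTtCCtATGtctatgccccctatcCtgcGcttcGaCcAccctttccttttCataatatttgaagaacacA
Serpina1b: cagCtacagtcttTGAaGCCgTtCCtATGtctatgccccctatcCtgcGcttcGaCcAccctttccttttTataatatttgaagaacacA
Serpina1c: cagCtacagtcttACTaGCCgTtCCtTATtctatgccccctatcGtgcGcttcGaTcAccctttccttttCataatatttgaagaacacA
Serpina1d: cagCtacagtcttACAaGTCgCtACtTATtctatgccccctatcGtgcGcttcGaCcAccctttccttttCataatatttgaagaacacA
Serpina1e: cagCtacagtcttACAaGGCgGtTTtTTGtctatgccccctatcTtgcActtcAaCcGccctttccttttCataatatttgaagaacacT

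The copies kept together in ratio. Serpina1b had 557 TPM in replicate 2 against 166 TPM in replicate 1, a ratio of 3.40. Serpina1a had 247 TPM in replicate 2 against 74.5 TPM in replicate 1 (3.37), Serpina1d had 243 TPM in replicate 2 against 76.6 TPM in replicate 1 (3.22), and Serpina1c had 239 TPM in replicate 2 against 78.4 TPM in replicate 1 (3.09). Serpina1e had 121 TPM in replicate 2 against 44.9 TPM in replicate 1, with the lowest ratio of the family, 2.76 (2.63 to 2.90). Summed over the family, which does not depend on how reads were split among copies, there were 67030 counts in replicate 2 against 20686 in replicate 1, a ratio of 3.24 (3.19 to 3.29).

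The order of the copies depended in part on the quantification. Serpina1b held the largest share of the family in both tables and both libraries, between 38.1% and 41.5%. Serpina1e held the smallest share in both, between 8.64% and 10.6%. Serpina1a held 17.4% in replicate 2 against 16.7% in replicate 1 in the gene table, but 21.7% in replicate 2 against 21.2% in replicate 1 in the second table, and Serpina1c held 16.7% in replicate 2 against 17.5% in replicate 1 in the gene table, but 12.5% in replicate 2 against 13.6% in replicate 1 in the second. The levels of single copies, and above all the order of Serpina1a, Serpina1c and Serpina1d, are therefore uncertain. Reads of the CAST/EiJ alleles were assigned to the C57BL/6J copies, and the effect of this on the shares was not tested.

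**Figure D3:**
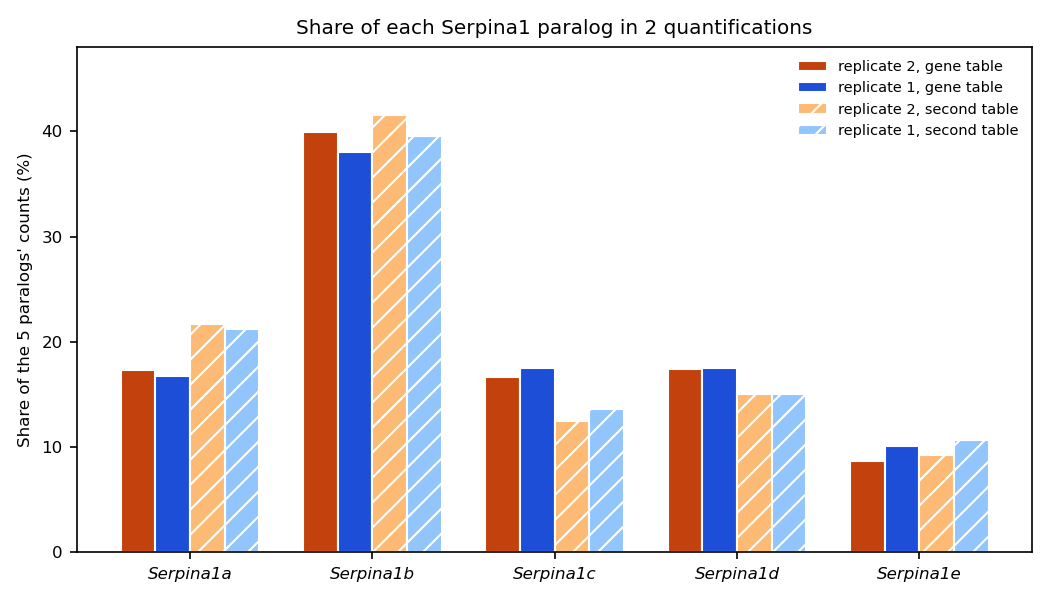
Share (%) of the expected counts of the 5 Serpina1 genes that each gene received, in replicate 2 (orange) and replicate 1 (blue), in the gene table (solid bars) and the second transcript table (hatched bars). Serpina1b leads at 38.1% to 41.5% and Serpina1e is last at 8.64% to 10.6% in all 4, while the share of Serpina1a is larger, and those of Serpina1c and Serpina1d smaller, in the second table.

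The 5 genes of the inter-alpha inhibitor family all followed Alb. Ambp, which encodes both the light chain bikunin and alpha-1-microglobulin, had 207 TPM in replicate 2 against 59.9 TPM in replicate 1, a ratio of 3.51. Of the genes named for its heavy chains, Itih2 had 147 TPM in replicate 2 against 45.5 TPM in replicate 1 (3.33), and Itih4 had 142 TPM in replicate 2 against 46.2 TPM in replicate 1 (3.20). Itih3 had 73.9 TPM in replicate 2 against 20.8 TPM in replicate 1 (3.64), and Itih1 had 41.5 TPM in replicate 2 against 12.9 TPM in replicate 1 (3.31). The interval of each of the 5 lay wholly above the Alb ratio, and the ratios themselves were 1.05 to 1.19 times that of Alb.

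Of the other members, Apoh, beta-2-glycoprotein I, which binds phospholipids, had 241 TPM in replicate 2 against 69.9 TPM in replicate 1, a ratio of 3.50, and Vtn, vitronectin, an adhesion protein of plasma and matrix, had 181 TPM in replicate 2 against 52.8 TPM in replicate 1, a ratio of 3.54. A1bg, alpha-1B-glycoprotein, had 0 counts in replicate 2 against 1 count in replicate 1, at or under the 3 counts that a count of 0 allows, which equal 0.06 TPM of this gene, so no ratio is given. A1bg was thus not detectable at this depth in either library.

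Fgf21, a hormone that liver releases in fasting and in the suckling period, was the member farthest from Alb. It lies at chr7:45613886-45615490 on the minus strand. It had 230 counts (7.27 TPM) in replicate 2 against 6 counts (0.19 TPM) in replicate 1, a ratio of 38.4 (17.4 to 106), which was 12.5 times the Alb ratio (5.67 to 34.5). The small count in replicate 1 sets the width of this interval, and the second transcript table gave 187 counts in replicate 2 against 6 in replicate 1, a ratio of 31.0.

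Hamp, hepcidin, which limits the release of iron into plasma, had 4.87 expected counts in replicate 2 against 4.24 in replicate 1. It shares reads with its near copy Hamp2, and the pair together had 9 counts in replicate 2 against 11 in replicate 1, a ratio of 0.819 (0.300 to 2.17) that includes 1 and lies wholly below the Alb ratio of 3.06. Its upper bound is within 1.5-fold of the Alb ratio, so by the band the pair neither followed nor departed.

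**Figure D4:**
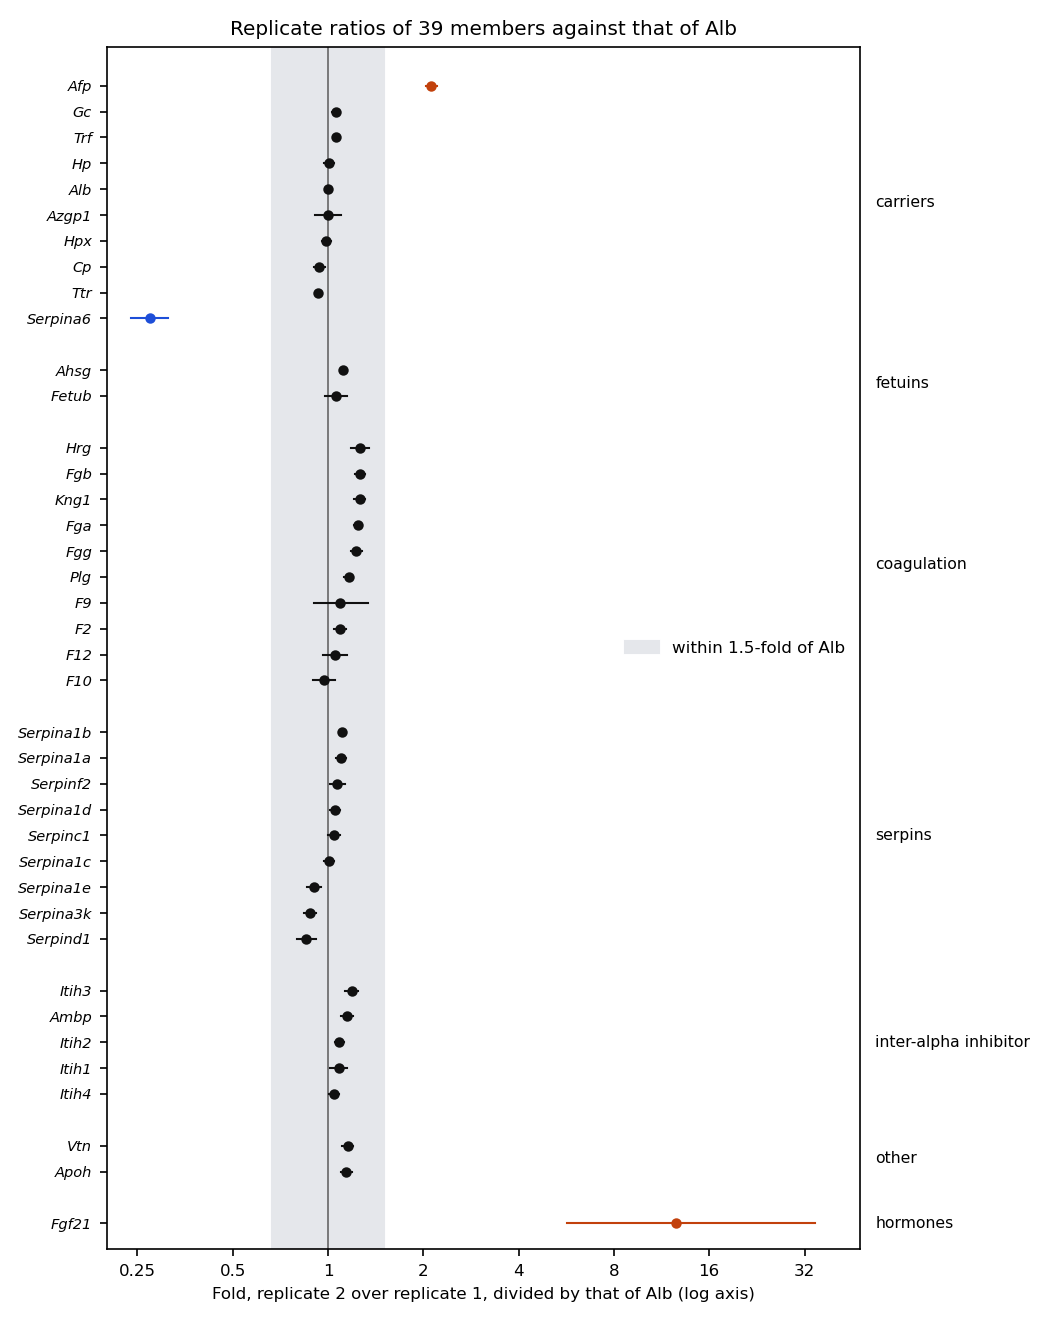
Ratio of replicate 2 over replicate 1 of each of the 39 classed genes divided by that of Alb (log axis), with its 95% counting interval, grouped by role. The grey band is within 1.5-fold of Alb. Black points, from Serpind1 at 0.855 to Hrg at 1.26, lie in the band, Afp at 2.12 and Fgf21 at 12.5 (orange) lie above, and Serpina6 at 0.274 (blue) lies below.

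The 36 followers had ratios of 2.62 to 3.87, with an SD of 0.14 on the log2 scale, while the SD over all 39 classed members was 0.67. No member lay close to the edge of the band: the outermost inside were Hrg at 1.26 and Serpind1 at 0.855 of the Alb ratio, and the nearest outside were Afp at 2.12 and Serpina6 at 0.274. Within the band the genes still differed by more than counting error. Of the 35 followers other than Alb, 22 had an interval wholly above the Alb ratio, 5 wholly below (Ttr, Cp, Serpina1e, Serpina3k and Serpind1), and 8 included it. These counts took the Alb ratio as fixed, though its own counting interval was 0.994 to 1.006 of it. Serpinc1, counted as above, had a lower bound of 1.0002, inside that interval. The median ratio of the classed members was 3.28, against 1.00 over all genes. The share of followers among all genes was small, 336 of 18175, and members were 36 of those 336 (10.7%).

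In all, the 41 genes took 2.75% of the counts of annotated genes in replicate 2 against 0.903% in replicate 1, and 4.99% of nuclear protein-coding TPM in replicate 2 against 1.67% in replicate 1. Alb was 36.1% of the members' summed TPM in replicate 2 against 37.9% in replicate 1. Members numbered 5 among the 100 most abundant nuclear protein-coding genes in replicate 2 against 3 in replicate 1, and 30 among the top 1000 in replicate 2 against 15 in replicate 1. Ordered by mean TPM, 3 of the 40 pairs of neighbours had libraries that did not overlap (F12 over Serpina6, F9 over Hamp, and Hamp over A1bg). As a share of the Alb level in the same library, 19 of the 40 pairs did not overlap, and 24 of the pairs stood in the same order in both libraries. In bulk tissue, more cells of a type and more RNA per cell cannot be told apart.

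In the first transcript table, most members were read mainly as 1 transcript. With a minimum of 10% of the gene's TPM in either library, 30 members had 1 transcript and 11 had several, 30 transcripts in all, of which 5 had ratios more than 1.5-fold from that of their gene. Cp-201 had 5.19 TPM in replicate 2 against 3.44 TPM in replicate 1, a ratio of 1.53 (1.36 to 1.71), against 2.88 for Cp as a whole, and the second table gave 1.48. Itih4-204 had 12.5 TPM in replicate 2 against 8.36 TPM in replicate 1, a ratio of 1.51 (1.39 to 1.65), against 3.20 for Itih4, and the second table gave 1.58. These transcripts thus lay below their gene in both quantifications.

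For the other 3 the quantifications differed. Serpinf2-201 had a ratio of 1.92 and Serpinf2-202 one of 5.14 in the first transcript table, while the second table gave 3.31 and 3.28 for them, close to the gene. Fetub-203 had a ratio of 6.64 in the first and 4.42 in the second table. Trf-209, 433 bases long with a retained intron, held 40.8% of the TPM of Trf in replicate 2 against 41.2% in replicate 1 in the first table. Its ratio there was 3.17, near that of the gene at 3.24. The second table gave it 598 of the gene's 3074 TPM in replicate 2, against 161 of 1010 TPM in replicate 1. Its ratio in that table was 4.09, against 3.26 for the gene, so the share of this transcript is uncertain. Afp-202, 405 bases long, had 64.0 TPM in replicate 2 against 10.8 TPM in replicate 1 in the first table but 1.28 TPM in replicate 2 against 0 TPM in replicate 1 in the second, so this short transcript is uncertain. Serpina1a-202, Serpina1e-201, Fetub-202 and Serpinc1-208 had 0 counts in both libraries in the second table. In the first table Serpina1a-202 had held 95.9% of its gene's TPM in replicate 2, so these transcripts are uncertain as well.

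Other genes of hepatocytes were compared with the members to see how far the Alb ratio extended. Of 37 other plasma protein genes, 34 had a mean of at least 10 counts, and 31 of these were more than 2-fold higher in replicate 2. Their median ratio was 2.84, and 25 followed Alb, 1 lay above, 2 lay below and 6 could not be classed. The most abundant were Rbp4, the retinol-binding protein, at 258 TPM in replicate 2 against 81.5 TPM in replicate 1 (ratio 3.21), Pzp, a broad protease inhibitor, at 216 TPM in replicate 2 against 59.9 TPM in replicate 1 (3.54), and Agt, angiotensinogen, at 106 TPM in replicate 2 against 32.0 TPM in replicate 1 (3.38). The highest ratio was that of Serpina7, the thyroxine-binding globulin, at 7.11 (5.09 to 10.2), and the lowest that of Pon3, a paraoxonase, at 1.12 (1.04 to 1.20).

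Of 30 intracellular hepatocyte genes, all had a mean of at least 10 counts and 21 were more than 2-fold higher. Their median ratio was 2.36, with 15 that followed Alb, 0 above, 7 below and 8 not classed. Pck1, which makes phosphoenolpyruvate in liver, kidney and fat, had 617 TPM in replicate 2 against 374 TPM in replicate 1, a ratio of 1.68 (1.65 to 1.70). Fabp1, the liver fatty acid-binding protein, had 150 TPM in replicate 2 against 39.3 TPM in replicate 1, the highest ratio of the list at 3.88, and Tat, tyrosine aminotransferase, had the lowest at 1.07. Intracellular genes thus ranged from ratios below those of the followers up to the top of the followers' range.

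Of 12 transcription factors of liver, 8 were more than 2-fold higher in replicate 2. The median ratio of the 12 was 2.82, with 2 that followed Alb, 4 below and 6 not classed. Cebpa, which binds the C/EBP motif, had 78.7 TPM in replicate 2 against 53.2 TPM in replicate 1, a ratio with an interval of 1.44 to 1.55, and fat cells also express it. Hnf4a had 17.2 TPM in replicate 2 against 5.40 TPM in replicate 1, a ratio of 3.35, and Creb3l3, a membrane-bound factor of hepatocytes, had 14.1 TPM in replicate 2 against 4.57 TPM in replicate 1, a ratio of 3.34. The highest ratio was that of Nr1i3, a xenobiotic receptor, at 4.78, and the lowest that of Nr0b2, a repressor of bile acid synthesis, at 0.855.

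Paralogs of the members were split. Of 17, 11 had a mean of at least 10 counts, and 7 of these were more than 2-fold higher. Serpina3n had 59.8 TPM in replicate 2 against 16.6 TPM in replicate 1 (ratio 3.66), Serpina3m had 42.5 TPM in replicate 2 against 12.9 TPM in replicate 1 (3.33), and Afm had 38.6 TPM in replicate 2 against 11.4 TPM in replicate 1 (3.45). The highest ratio was that of Serpina3i, 17.9 (3.38 to 869), with 21.5 expected counts in replicate 2 against 1.20 in replicate 1, and Heph, a relative of ceruloplasmin in cell membranes, had the lowest at 0.988. Genes of the Serpina3 family share reads, so their single values are uncertain.

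Genes known to respond to inflammation lay on both sides of the Alb ratio. Of 16 genes that inflammation raises, 12 had enough counts, and 9 followed Alb, 1 lay below and 2 were not classed, with a median ratio of 3.05. Its most abundant genes were the members Hpx, Hp and Fga, its highest ratio was that of Fgb at 3.86, and its lowest was that of Lrg1 at 1.36. Saa1, serum amyloid A, which liver makes in large amounts in inflammation, had 4 counts in replicate 2 against 2 in replicate 1. Of 6 genes that inflammation lowers, Alb is the reference itself. Ahsg, Trf, Ttr and Rbp4 followed it, Serpina6 lay below, and the median ratio of the 6 was 3.14. All of these but Rbp4 are members, as are Hp, Hpx, Cp, Fga, Fgb, Fgg, Itih4 and Hamp among the raised genes. Both lists therefore largely repeat values given above.

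Markers of other cell types were read beside these values. All 7 skeletal muscle markers followed Alb, against 1.85% of all genes, with ratios of 2.43 for Myh1 to 2.94 for Ckm. Their summed levels were 859 TPM in replicate 2 against 318 TPM in replicate 1. Acta1 had 305 TPM in replicate 2 against 107 TPM in replicate 1, and Mylpf had 225 TPM in replicate 2 against 86.9 TPM in replicate 1. Each of the 8 granulocyte markers exceeded a ratio of 2, against 6.74% of all genes, and the median was 3.42. Of these markers 4 followed Alb and 4 could not be classed. Their summed levels were 102 TPM in replicate 2 against 33.2 TPM in replicate 1. They were led by S100a9 at 41.5 TPM in replicate 2 against 12.8 TPM in replicate 1, S100a8 and Ngp. Their ratios ranged from Camp at 2.15 (1.51 to 3.09) to Elane at 12.5 (3.12 to 109). Elane had 25 counts in replicate 2 against 2 in replicate 1. None of the markers of either list was at 0. Their part in the ratios of the members was not tested.

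Among 8 macrophage markers, Clec4f, which marks the Kupffer cells of liver, had the highest ratio, 3.39 (2.77 to 4.17), with 5.82 TPM in replicate 2 against 1.44 TPM in replicate 1. The other 7, led by C1qb, C1qa and Csf1r, had ratios of 1.41 for C1qa to 2.04 for Cd68. The 7 erythroid markers, led by Hba-a1, Hbb-bs and Alas2, had a median ratio of 1.41, and the lowest was 1.01 for Hbb-bs. The 9 adipocyte markers, led by Fabp4, Ucp1 and Cox8b, had a median ratio of 1.04, from Ucp1 at 0.745 to Retn at 2.43. Pericyte and smooth muscle markers, led by Rgs5, Acta2 and Tagln, had a median ratio of 1.61, from Kcnj8 at 0.975 to Cnn1 at 7.90. Schwann cell markers, led by S100b, Mbp and Erbb3, had a median ratio of 1.31 and the lowest, Foxd3, stood at 0.832, and mesothelial markers, led by Msln, Upk3b and Krt19, one of 1.16, from Wt1 at 0.804 to Krt19 at 1.34.

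**Figure D5:**
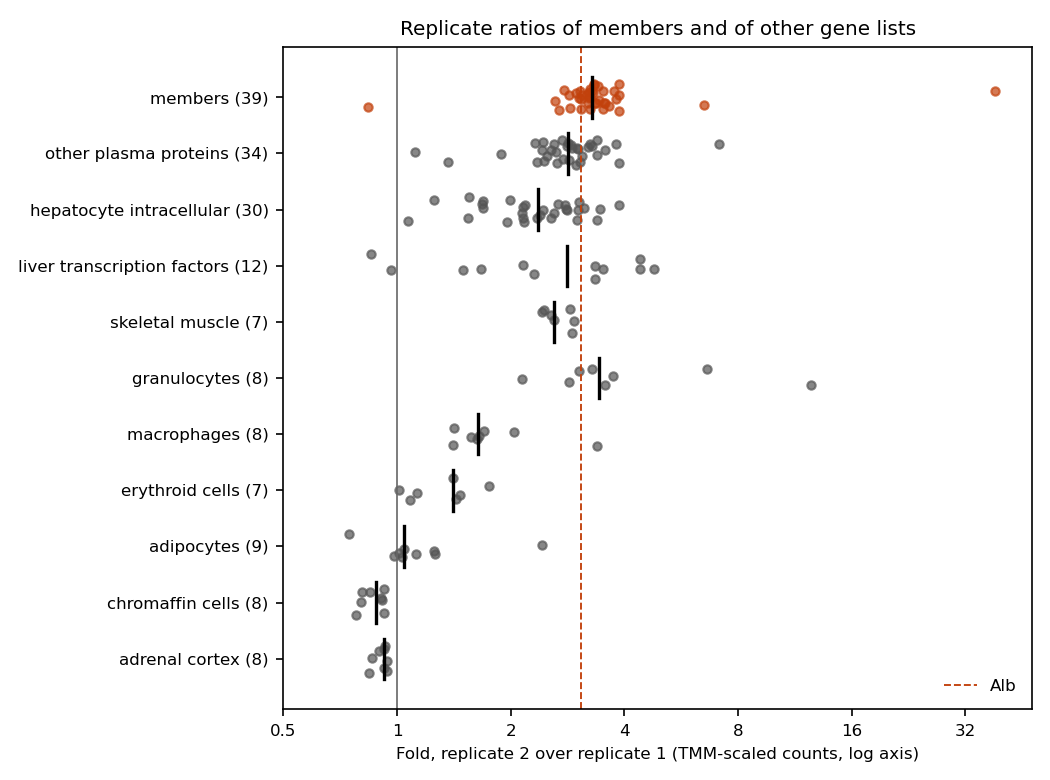
Ratio of replicate 2 over replicate 1 (TMM-scaled counts, log axis) of each gene with a mean of at least 10 counts, for the members (orange) and 10 other lists (grey), with the number of genes in brackets. Black bars are medians, the dashed line is Alb at 3.06 and the solid line is 1. The members cluster about the dashed line with 3 genes apart, and cortex and chromaffin markers lie just below 1. Medians of the other hepatocyte lists lie between 1 and the dashed line. Their genes spread to both sides of that line, up to Serpina7 at 7.11, and 2 transcription factors lie below 1.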

How the data were processed

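Total RNA-seq of 2 adrenal gland libraries in 1 group was used. Per the file headers, the gene table and the first transcript table hold RSEM-style columns. Notes deposited beside the files say that the authors made these from reads aligned to the transcriptome (mm10, GENCODE M21). Deposited values are expected counts without normalisation, TPM over all entries, and each transcript's percent of its gene's TPM. A further deposited transcript table, quantified by the authors straight from reads and an index, has kallisto-style columns with estimated counts and TPM, and was summed per gene. The software is not given in the sources used here. Expected counts were rounded for intervals only.

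Ratios used TMM factors (edgeR 4.0.16 in R 4.3.3), with a prior of 0.5 counts for log2 values only. Ratios relative to Alb used unscaled counts. Reads carry no molecular identifiers, so intervals and floors of 3 counts cover counting error only. Replicates may differ technically or biologically, and no test was made. The classes were tested on simulated data. All members are described, with the 3 most abundant genes and the highest and lowest ratio of each other list, apart from a few items not reported here. Saa1 and Hamp2 were named after their values were seen. Members and lists were chosen with earlier results of these data known. Alternatives were DESeq2 1.42.0 size factors, library and spike-in totals, the second table, other minimums, priors, folds, bands and anchors. Promoters are from RefSeq (GRCm38.p6), and transcripts and gene coordinates from GENCODE M21 (mm10).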

Additional observations from a re-analysis of the deposited data

How the results depend on the processing

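The median level of the members was 96.4 TPM. It was 44.8 to 147 TPM when either library was left out, 141 TPM in the second transcript table and 285 TPM when TPM was rescaled over nuclear protein-coding genes, a change of denominator. The median log2 ratio of 1.71 was 1.63 under library totals and 1.66 to 1.77 under the other scalings, the second table, the mean over members, and other priors and minimums. The count of 38 members more than 2-fold higher stayed at 38 except at 3-fold, where it was 32. The count of 36 followers stayed at 36 under a 2-fold band, point values, the second table and the median of the other members as anchor, and was 29 under the narrower band tried, where Fga, Fgb, Fgg, F9, Kng1, Hrg and Serpind1 could not be classed. Afp and Fgf21 above and Serpina6 below held in all of these. Of 156 single ratios recomputed, 0 changed direction, 46 left the counting interval and 0 moved by more than 1.5 times. With 2 libraries of 1 group the spread between animals is not known, and depth limits A1bg, Hamp and Fgf21.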
